A study of Mus musculus with 10 samples.

Results

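The 9 genes described here, *Cdh5*, *Cldn5*, *Ocln*, *Tjp1*, *Pecam1*, *Tie1*, *Tek*, *Esam* and *Eng*, mark vascular endothelial cells or form the junctions between them. They were taken by symbol from the 15900 genes of a table of cap analysis of gene expression (CAGE) tags of the mouse hippocampus. All 9 were listed, and all 9 were among the 15851 genes that passed a filter on low values. In CAGE the capped 5′ ends of RNAs are captured and read, each tag marking where transcription began, and levels are given as CPM, tag counts scaled to the total of the library. The study asked how hippocampal transcripts change in the days after pilocarpine (PILO)-induced status epilepticus (SE), a prolonged seizure state, and what levetiracetam (LEV), an antiseizure drug, does to these changes.

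All mice were male ICR mice, an outbred stock, and those given PILO were 9 to 10 weeks old at that time. Pre-SE mice carry the label "untreated", and the study's methods describe control animals that received saline in place of PILO. SE mice received methyl scopolamine to limit the peripheral effects of PILO, then PILO, and diazepam to end the seizures, and were sampled at 6 h (SE 6 h) or 2 days (SE 2 days). SE + LEV mice were treated alike and also received oral LEV, first within 30 min after diazepam, with 1 dose before 6 h and 5 doses before 2 days. There were 2 mice in each of these 5 groups, 10 in all, each with its own library. The effects of PILO, the seizures and diazepam cannot be told apart in SE mice, and the sources used here do not make clear whether pre-SE mice also received scopolamine or diazepam.

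In the brain, endothelial cells line the vessels and form the blood-brain barrier. VE-cadherin, the product of *Cdh5*, joins neighbouring endothelial cells at adherens junctions, and claudin-5 (*Cldn5*) and occludin (*Ocln*) seal the tight junctions, which ZO-1 (*Tjp1*) ties to the actin cytoskeleton. ESAM and PECAM-1 are adhesion molecules of the immunoglobulin superfamily at endothelial cell contacts. *Tek* encodes TIE2, the receptor of the angiopoietins, *Tie1* its partner receptor, and *Eng* endoglin, a co-receptor for ligands of the BMP and TGF-β family. *Tjp1* and *Ocln* are also used by epithelial cells, and *Tjp1* by many other cell types.

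On the mm9 mouse genome *Cdh5* lies at chr8:106625525-106668402 on the plus strand. *Eng*, at chr2:32502115-32538189 on the plus strand, overlaps *Ak1* and 2 other annotated genes on the same strand and *Fpgs* on the opposite strand, and *Pecam1*, at chr11:106515531-106611942 on the minus strand, overlaps a small *U3* RNA gene. Tags of *Eng* and *Pecam1* in these overlaps could belong to either gene, since the study does not state how tags were summed to genes. The other 7 genes overlapped no annotated gene.

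The bases before a start annotated in RefSeq are shown for 3 members whose levels followed different courses. These are *Eng*, with a higher mean at 6 h, and the paired receptors *Tie1* and *Tek*, without one. Levels were given per gene, so the starts that the tags came from are not known. The mm9 annotation has 6 start sites for *Eng*, 3 for *Tie1* and 4 for *Tek*. The sequences are the 250 bases before the RefSeq start on build GRCm38.p6, given 5′ to 3′ along the gene's strand, at chr2:32646345-32646594 (plus strand) for *Eng*, chr4:118489850-118490099 (minus) for *Tie1* and chr4:94739039-94739288 (plus) for *Tek*. Capitals mark the ETS hexamers searched, AGGAAG or CGGAAG on either strand. ETS factors are transcription factors with a central part in endothelial gene expression.
Eng: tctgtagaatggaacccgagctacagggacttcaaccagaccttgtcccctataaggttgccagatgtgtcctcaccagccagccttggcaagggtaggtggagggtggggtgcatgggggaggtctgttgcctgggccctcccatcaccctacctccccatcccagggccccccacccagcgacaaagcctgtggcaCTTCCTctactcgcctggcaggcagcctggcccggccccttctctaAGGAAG
Tie1: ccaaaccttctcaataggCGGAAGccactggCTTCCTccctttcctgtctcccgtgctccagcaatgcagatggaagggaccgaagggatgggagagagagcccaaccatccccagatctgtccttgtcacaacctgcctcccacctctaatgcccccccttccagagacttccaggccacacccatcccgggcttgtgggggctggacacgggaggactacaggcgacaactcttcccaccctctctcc
Tek: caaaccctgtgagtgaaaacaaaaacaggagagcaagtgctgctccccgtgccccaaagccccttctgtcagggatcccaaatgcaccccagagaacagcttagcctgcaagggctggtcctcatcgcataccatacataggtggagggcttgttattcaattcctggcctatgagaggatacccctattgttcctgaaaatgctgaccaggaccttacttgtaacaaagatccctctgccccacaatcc
The *Eng* window held 2 hexamers, the *Tie1* window 2 and the *Tek* window none. RefSeq promoters were matched for 6 of the 9 members, with *Cldn5*, *Ocln* and *Tjp1* besides these 3, and 3 of the 6 (*Eng*, *Tie1* and *Tjp1*) held an ETS hexamer, against 39.2% of 32851 promoters of the same length. The letters TATAAA were in none of the 6 and in 12.4% of all promoters. *Cdh5*, *Pecam1* and *Esam* were not matched.

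All 9 genes had tags in all 10 libraries, from 0.96 CPM for *Tie1* upwards, above the 0.058 to 0.285 CPM that 3 tags were worth at depths of 10540698 to 51710968 tags per library. *Ttr*, the leading transcript of the choroid plexus, was at 1000 CPM or more in 3 libraries. These were pre-SE mouse 2, SE 6 h mouse 2 and SE + LEV 2 days mouse 1. In them 6 choroid plexus markers summed to 1510 to 4033 CPM, against 9.01 to 876 CPM in the other 7 libraries. Results that lose their call without these 3 libraries are given both ways. Leaving them out leaves 1 mouse in each of the 3 groups, so a call lost there also comes with fewer mice. Differences (logFC) are on the log2(CPM + 0.1) scale, were tested with limma over all genes with Benjamini-Hochberg adjustment, and were called at an adjusted p of at most 0.05. An exact permutation test of 2 mice against 2 (two-sided) cannot go below p = 0.333, and calls therefore rest on the spread that limma shares across genes and groups. Nothing states whether the mice of a group were processed together, and in whole hippocampi more endothelial cells and more RNA per cell cannot be told apart. As CPM are scaled to the library total, less RNA from other cells could also raise them, which was not tested.

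**Figure D1:**
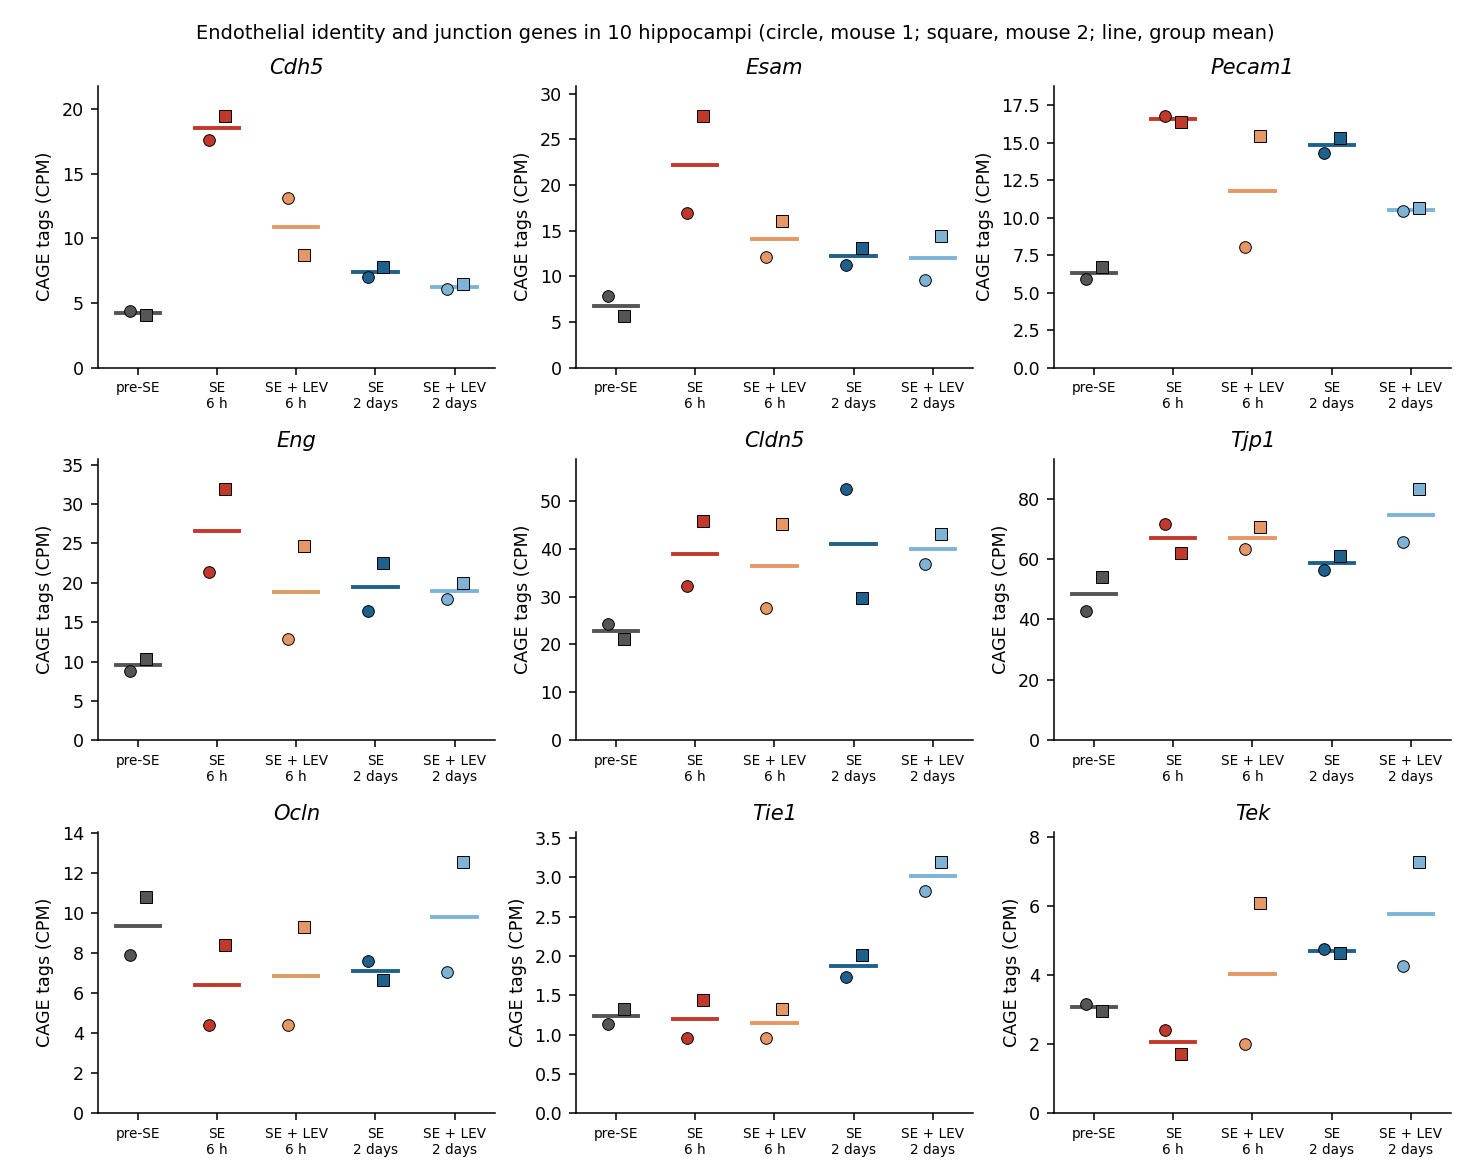
CAGE tags (CPM, linear axes from 0, 1 scale per gene) of the 9 genes by group, with 1 circle (mouse 1) and 1 square (mouse 2) per group and a line at the group mean. *Cdh5* was highest in SE 6 h mice, at 17.58 and 19.46 CPM, while *Tek* was lowest on average in that group and *Tie1* highest in SE + LEV 2 days mice.

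At 6 h after SE, the adhesion genes *Cdh5* and *Esam* rose, *Pecam1* and *Eng* were higher without passing the threshold, and the angiopoietin receptor genes and *Ocln* were not higher. *Cdh5* stood at 4.41 and 4.06 CPM before SE, compared with 17.58 and 19.46 CPM in the SE 6 h mice. Both SE 6 h mice were thus above every mouse of the other 4 groups. The group means of 4.24 ± 0.248 and 18.5 ± 1.33 CPM (SD, n = 2) differed by a logFC of 2.10 (SE 0.30, 95% interval 1.43 to 2.77, adjusted p = 0.00605, limma). The call was lost without the 3 libraries high in *Ttr*, where the logFC was 1.97 (adjusted p = 0.198, limma), and it held with *Ttr* as a covariate, at 2.10 (adjusted p = 0.00579, limma). It was also lost without pre-SE mouse 2 (adjusted p = 0.0503, limma) or without SE 6 h mouse 2 (adjusted p = 0.0578, limma), 2 of those 3 libraries.

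*Esam* was at 7.79 and 5.67 CPM before SE, compared with 16.9 and 27.54 CPM at 6 h. The groups did not overlap, but the SE 6 h mouse with high *Ttr* was the higher one. The logFC was 1.68 (SE 0.35, adjusted p = 0.0313, limma). Without the 3 libraries the call was lost, at a logFC of 1.11. With *Ttr* as a covariate the call held, at 1.69 (adjusted p = 0.0292, limma). This call also moved with the spread used, to an adjusted p of 0.0563 when only the 2 groups were fitted in limma and to 0.0515 to 0.241 when any 1 of the 4 mice was left out.

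*Pecam1* was at 5.93 and 6.69 CPM before SE and at 16.77 and 16.38 CPM at 6 h, so its replicates lay close together and apart from pre-SE mice. Its logFC of 1.38 (SE 0.33) had an adjusted p of 0.0548 in limma. *Eng* was at 8.83 and 10.29 CPM before SE and at 21.36 and 31.93 CPM at 6 h, without overlap, a logFC of 1.44 (SE 0.35, adjusted p = 0.0616, limma). With the libraries rescaled by the median of ratios both passed, *Pecam1* at an adjusted p of 0.0285 and *Eng* at 0.0338 in limma, in a table whose median logFC over all genes went from -0.13 to -0.01.

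None of *Cldn5*, *Tjp1* and *Ocln* was called at 6 h. *Cldn5* was at 24.24 and 21.23 CPM before SE, compared with 32.17 and 45.7 CPM after it, without overlap, and its logFC of 0.75 (SE 0.34) had an adjusted p of 0.282 in limma. *Tjp1* was at 42.9 and 54.19 CPM and then at 71.65 and 62.01 CPM, a logFC of 0.47 (95% interval -0.04 to 0.97, adjusted p = 0.315, limma). *Ocln* overlapped, with 7.9 and 10.79 CPM before SE and 4.39 and 8.43 CPM after it, and its logFC was -0.59 (95% interval -1.62 to 0.44, adjusted p = 0.538, limma).

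Neither angiopoietin receptor gene was called, and neither had a higher mean at 6 h. *Tie1* had 1.14 and 1.33 CPM before SE, compared with 0.96 and 1.44 CPM at 6 h, a logFC of -0.06 (95% interval -0.90 to 0.79). With median-of-ratios rescaling the logFC of *Tie1* was 0.06, and its SE 6 h mice lay on either side of the pre-SE mice. *Tek* had 3.17 and 2.96 CPM and then 2.41 and 1.71 CPM, both SE 6 h mice below both pre-SE mice, with a logFC of -0.57 (95% interval -1.69 to 0.55, adjusted p = 0.591, limma).

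Of the 9 genes, 2 were thus called higher at 6 h, against 2.76% of all genes, and 0 lower, against 0.202%. An unadjusted p under 0.05 in the direction of higher levels was reached by 4 (9.21% of all genes), and the lower SE 6 h mouse exceeded the higher pre-SE mouse in 6 (18.6% of all genes). The reverse order was found for *Tek* alone (31.3% of all genes). The median logFC of the 9 was 0.75, and 0.61 without *Cdh5*, beside -0.13 over all genes tested.

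**Figure D2:**
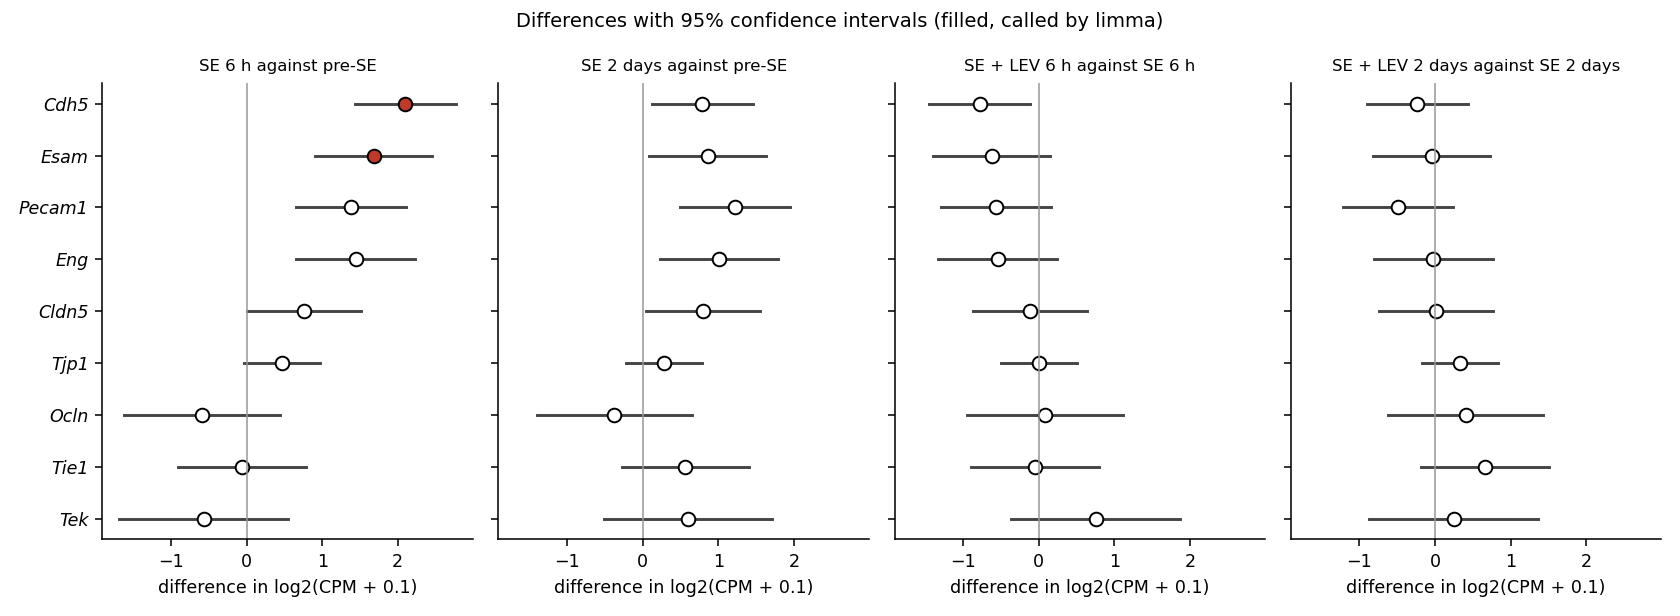
Differences in log2(CPM + 0.1) with 95% confidence intervals from limma for the 9 genes, in SE 6 h and SE 2 days mice against pre-SE mice and in SE + LEV against SE mice at each time, with called genes filled. *Cdh5* (2.10) and *Esam* (1.68) at 6 h are the only filled points, and the 2 panels for SE share the pre-SE mice.

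At 2 days after SE no member was called higher (5.07% of all genes were) or lower (0.593%), although most lay above pre-SE mice. *Cdh5* had come down to 7.04 and 7.74 CPM, and both mice were still above both pre-SE mice, with a logFC of 0.79 (SE 0.30, adjusted p = 0.175, limma). *Pecam1*, at 14.33 and 15.33 CPM, had the largest logFC of the 9, 1.22 (SE 0.33, adjusted p = 0.0591, limma). It passed in limma with median-of-ratios rescaling (adjusted p = 0.0476) and with only the 2 groups fitted (0.0467).

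*Eng* stood at 16.49 and 22.5 CPM (logFC 1.01, adjusted p = 0.141, limma) and *Esam* at 11.28 and 13.04 CPM (logFC 0.86, adjusted p = 0.203, limma), all above both pre-SE mice. *Cldn5* was at 52.45 and 29.61 CPM, a wide gap between replicates, and its logFC was 0.79. *Tie1*, at 1.74 and 2.01 CPM, and *Tek*, at 4.75 and 4.63 CPM, were now above both pre-SE mice in both mice, with logFC of 0.57 and 0.60 (adjusted p = 0.468 and 0.581, limma). The logFC of *Tjp1* was 0.28 and that of *Ocln* -0.37.

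In all, 8 of the 9 genes were higher in both SE 2 days mice than in both pre-SE mice (26.3% of all genes were), *Ocln* was lower in both (25.6%), and 5 had an unadjusted p under 0.05 (12.5%). The median logFC of the 9 was 0.79, beside -0.03 over all genes.

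Comparing the 2 times after SE directly, *Cdh5* fell, with a logFC of -1.31 from SE 6 h to SE 2 days (SE 0.30, 95% interval -1.98 to -0.65, adjusted p = 0.0387, limma). It was the only member called lower (1.11% of all genes were), and none was called higher (3.14%). Its call was lost without the libraries high in *Ttr* (logFC -1.24) and when any 1 of the 4 mice was left out, while its direction stayed. With *Ttr* as a covariate the call held, at -1.29 (adjusted p = 0.0425, limma).

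*Esam* was 0.83 lower on this scale, with an adjusted p of 0.221 in limma, and *Pecam1* differed by -0.16 (95% interval -0.89 to 0.57), so its level at 2 days was not separable from that at 6 h. *Eng* differed by -0.44, *Tjp1* by -0.18, *Cldn5* by 0.04 (-0.06 with median-of-ratios rescaling) and *Ocln* by 0.22. *Tek* differed the other way, by 1.17 (95% interval 0.05 to 2.29, adjusted p = 0.228, limma), and *Tie1* by 0.62 (adjusted p = 0.393, limma). Both mice at 2 days were below both mice at 6 h for *Cdh5*, *Esam*, *Pecam1* and *Tjp1* (20.1% of all genes) and above them for *Tek* and *Tie1* (31% of all genes).

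LEV was compared with SE alone at the same time, and no member was called at either time. At 6 h, 0% of all genes were called higher and 0.0126% lower with LEV, and at 2 days 0% in both directions, where no member had an unadjusted p under 0.05 either. *Cdh5* was at 13.09 and 8.73 CPM in SE + LEV 6 h mice, both below both SE 6 h mice and above both pre-SE mice. Its logFC against SE 6 h was -0.79 (SE 0.30, 95% interval -1.45 to -0.12), with an unadjusted p of 0.0255 and an adjusted p of 0.969 in limma. It was the only member with an unadjusted p under 0.05, reached in the lower direction by 3.42% of all genes.

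*Esam*, at 12.13 and 16.03 CPM, and *Pecam1*, at 8.07 and 15.46 CPM, were also below both SE 6 h mice, with logFC of -0.63 and -0.56 and an adjusted p of 1 in limma. These 3 genes out of 9 stand beside 13.4% of all genes. *Eng* was at 12.93 and 24.67 CPM, the second mouse within the SE 6 h range, and its logFC was -0.55 (95% interval -1.33 to 0.24).

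*Tek*, at 1.99 and 6.07 CPM, spanned the range from SE 6 h to above pre-SE mice, with a logFC of 0.75 (95% interval -0.37 to 1.87). *Cldn5* (27.68 and 45.06 CPM), *Tjp1* (63.2 and 70.77), *Ocln* (4.42 and 9.3) and *Tie1* (0.96 and 1.33) overlapped the SE 6 h mice, with logFC between -0.12 and 0.07, where that of *Tjp1* was 0.005 (-0.05 with median-of-ratios rescaling). Against pre-SE mice, no member was called in SE + LEV 6 h mice (0.315% of all genes were called higher and 0.00631% lower). *Cdh5* had a logFC of 1.32 there (adjusted p = 0.134, limma), and *Esam* 1.06, *Eng* 0.90 and *Pecam1* 0.82. These 4 had an unadjusted p under 0.05 (5.53% of all genes), and in 6 members the pre-SE and SE + LEV 6 h levels did not overlap, with the latter higher (17% of all genes).

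At 2 days *Cdh5* was at 6.06 and 6.45 CPM with LEV, just below both SE 2 days mice, and its logFC of -0.24 had a 95% interval of -0.90 to 0.43. *Pecam1*, at 10.42 and 10.64 CPM, was likewise below both SE 2 days mice (logFC -0.49, 95% interval -1.22 to 0.24). *Tie1*, at 2.83 and 3.2 CPM, and *Tjp1*, at 65.66 and 83.21 CPM, were above both SE 2 days mice, with logFC of 0.66 and 0.33. Both directions held 2 of the 9 genes, beside 12.2% of all genes lower and 15.2% higher.

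The other 5 genes at 2 days with LEV overlapped SE 2 days mice. *Esam* was at 9.6 and 14.42 CPM, *Eng* at 17.97 and 20.04 and *Cldn5* at 36.83 and 42.96, with logFC of -0.04, -0.02 and 0.01 (-0.04 for *Cldn5* with median-of-ratios rescaling). *Tek* was at 4.27 and 7.27 CPM and *Ocln* at 7.06 and 12.57, with logFC of 0.24 and 0.40. The LEV effect on *Cdh5* at 2 days minus that at 6 h was 0.55 (95% interval -0.40 to 1.49, adjusted p = 1 in limma), and no member was called in this comparison (0% of all genes were).

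Against pre-SE mice, no member was called in SE + LEV 2 days mice (2.83% of all genes were called higher and 0.0189% lower), and *Tie1* had the largest logFC, 1.22 (SE 0.38, adjusted p = 0.177, limma), where *Cdh5* had 0.55. An unadjusted p under 0.05 was reached by 6 genes (8.86% of all genes), and the levels did not overlap, with SE + LEV 2 days the higher group, in 8 (22.6%). From SE + LEV 6 h to SE + LEV 2 days *Tie1* was 1.34 higher (adjusted p = 0.14, limma) and *Cdh5* differed by -0.76 (adjusted p = 0.337, limma), and no member was called higher (2.06% of all genes were) or lower (0.0757%). These comparisons share the pre-SE and SE + LEV mice with those above. Their logFC are therefore given side by side and not related to each other.

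Whether *Cdh5* moved with the other members was described within each mouse, as its log2(CPM + 0.1) minus the median of the other 8 genes, a measure that the total of a library cannot move much. Before SE the value was -0.82 and -1.01, and at 6 h after SE it was 0.06 and -0.13, so both SE 6 h mice had more *Cdh5* relative to the other genes than both pre-SE mice. At 2 days it was -0.84 and -0.86 without LEV and -0.71 and -1.05 with LEV, within or near the range of pre-SE mice. In SE + LEV 6 h mice it was 0.40 in mouse 1 and -0.84 in mouse 2, the widest split of the 5 groups (mean -0.22 ± 0.879, SD, n = 2), with 1 mouse above the SE 6 h mice and 1 in the range of pre-SE mice.

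The split in SE + LEV 6 h mice came from both sides of the measure. Mouse 1 had the higher *Cdh5* level, 13.09 against 8.73 CPM, and the lower level of each of the other 8 genes. Mouse 2 had the smallest library, with 10540698 tags, and mouse 1 had 843 CPM of *Ttr* against 30 CPM in mouse 2, and the part of either in the split was not tested.

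**Figure D3:**
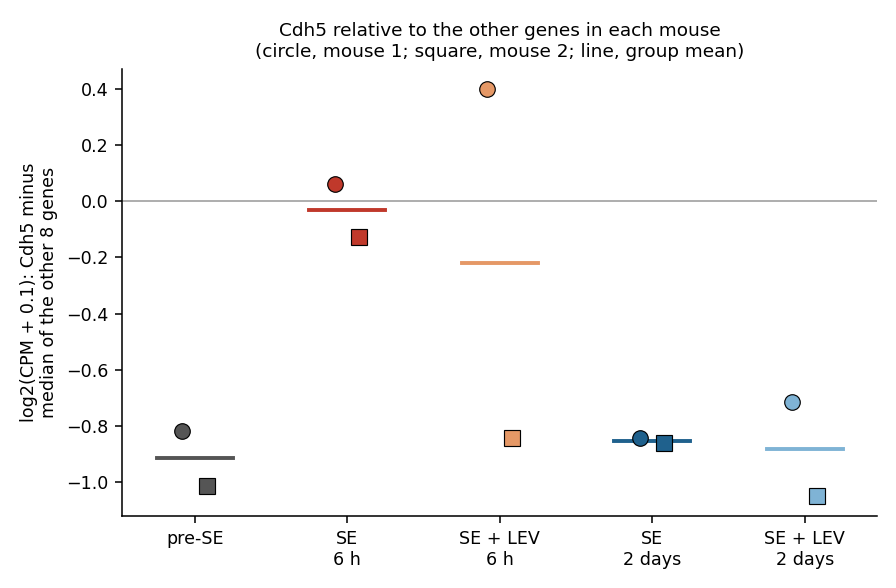
Log2(CPM + 0.1) of *Cdh5* minus the median of the other 8 genes in each of the 10 mice, with a line at each group mean. Both SE 6 h mice (0.06 and -0.13) lie above all pre-SE, SE 2 days and SE + LEV 2 days mice, and the SE + LEV 6 h mice (0.40 and -0.84) lie on either side.

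Gene by gene, the ratio of *Cdh5* to *Pecam1* CPM was 0.744 and 0.607 before SE, compared with 1.05 and 1.19 at 6 h. With *Esam* the ratios overlapped, at 0.566 and 0.716 before SE and 1.04 and 0.707 at 6 h, so both SE 6 h mice exceeded both pre-SE mice for *Pecam1* and only mouse 1 did for *Esam*. The ratio to *Ocln* was 0.558 and 0.376 before SE and 4.005 and 2.31 at 6 h. The ratio to *Tek* was 1.39 and 1.37 and then 7.29 and 11.4, and that to *Tie1* 3.87 and 3.05 and then 18.3 and 13.5, so the SE 6 h mice stood apart from the pre-SE mice for these 3 genes as well.

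Likeness to *Cdh5* was also measured as the root mean square difference between the 4 logFC against pre-SE mice of a gene and of *Cdh5*, over 14220 genes with a mean of at least 1 CPM, where smaller is more alike and the median gene was at 1.46. The 4 logFC share the pre-SE mice, so this is a description of the pattern over 4 groups. *Esam* was the nearest member, ranked 30 at 0.281, followed by *Eng*, ranked 154 at 0.459, and *Pecam1*, ranked 183 at 0.497. *Cldn5* ranked 639 and *Tjp1* 1243. *Tie1* ranked 5146, *Tek* 7192 and *Ocln* 11714, at 1.34, 1.46 and 1.75. *Tie1* was thus nearer than the median gene, *Tek* about at it and *Ocln* past it.

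The 5 genes nearest to *Cdh5* were *Rnd3* (0.095), *Gm8741* (0.118), *Jarid2* (0.119), *Arid5b* (0.154) and *Gm7862* (0.158), none of them in the lists of endothelial genes used here. *Rnd3* was at 13.11 and 19.67 CPM before SE, 75.92 and 57.83 at 6 h and 24.55 and 35.54 at 2 days. *Jarid2* and *Arid5b* encode chromatin and DNA-binding proteins. *Gm8741* and *Gm7862* are annotated as pseudogenes, whose tags may come from near-identical parent genes, and are uncertain.

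Related genes were described in 4 lists, of which 20 endothelial identity, 14 junction, 11 receptor partner and 16 transcription factor genes were tested. The lists were chosen with earlier results of these data known, so their counts and medians are descriptions only. At 6 h, 2 of 20 other endothelial identity genes were called higher, *Cd93* and *Nos3*, beside 2.76% of all genes. *Cd93*, a transmembrane glycoprotein of endothelial and myeloid cells, went from 2.48 and 3.29 CPM to 18.6 and 31.04 CPM (logFC 3.03, adjusted p = 0.00989, limma). Without the 3 libraries high in *Ttr* its call was lost (logFC 2.86). *Nos3*, endothelial nitric oxide synthase, went from 4.69 and 6.01 CPM to 14.69 and 30.56 CPM (logFC 1.98, adjusted p = 0.0342, limma), a call also lost without these libraries (logFC 1.63). With *Ttr* as a covariate both calls held, at an adjusted p of 0.00775 for *Cd93* and 0.0281 for *Nos3* in limma.

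None of the 14 other junction genes was called by limma at either time, and 2 had an unadjusted p under 0.05 in the direction of higher levels at each, beside 9.21% of all genes at 6 h and 12.5% at 2 days. Of the 11 partners of TIE receptors and endoglin, 1 was called at 6 h (beside the same 2.76% of all genes), *Angpt2*, the angiopoietin that endothelial cells release and that can oppose angiopoietin-1 at TIE2. It was at 0.34 and 0.85 CPM before SE and at 5.45 and 15.01 CPM at 6 h (logFC 3.82, adjusted p = 0.00486, limma), while *Tek*, its receptor, was not higher. *Angpt2* was at 5.58 and 5.6 CPM in SE + LEV 6 h mice, where it was also called against pre-SE mice (logFC 3.14, adjusted p = 0.04, limma). Of 16 endothelial transcription factors 1 was called, *Elk3*, an ETS factor (logFC 1.83, adjusted p = 0.0489, limma). Its call was lost without the libraries high in *Ttr* (logFC 1.98) and held with *Ttr* as a covariate (adjusted p = 0.0432, limma).

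At 2 days 2 of 20 endothelial identity genes, 1 of 11 partners and 2 of 16 transcription factors were called higher, beside 5.07% of all genes. *Cd93* (logFC 2.39, adjusted p = 0.0175, limma) was called again, and *Vwf*, von Willebrand factor, was called at 11.36 and 9.65 CPM against 2.17 and 3.21 CPM before SE (logFC 1.95, adjusted p = 0.0183, limma). *Tgfbr2*, a TGF-β receptor, reached a logFC of 1.78 (adjusted p = 0.0191, limma). *Elk3* was at 17.6 and 31.48 CPM against 3.79 and 4.33 CPM (logFC 2.51, adjusted p = 0.00725, limma). *Tal1*, a factor of blood and endothelial cells, was at 0.89 and 1.19 CPM against 0.1 and 0.31 CPM (logFC 1.98, adjusted p = 0.0407, limma). Its 0.1 CPM in pre-SE mouse 1 was near the 0.103 CPM that 3 tags were worth there. Under the alternatives the logFC of *Tal1* ran from 0.76 to 2.50. In SE + LEV 2 days mice *Tgfbr2* (logFC 1.70, adjusted p = 0.0357, limma) and *Elk3* (logFC 1.91, adjusted p = 0.04, limma) were called against pre-SE mice. Both calls were lost without the libraries high in *Ttr*, at 1.86 for *Tgfbr2* and 1.78 for *Elk3*. With *Ttr* as a covariate both held, at an adjusted p of 0.0221 for *Tgfbr2* and 0.0365 for *Elk3* in limma. *Nos3* overlaps *Atg9b* and *Gm15587*, *Angpt2* overlaps *Mcph1* and *Elk3* overlaps *Cdk17*, each on the opposite strand, so tags of these 3 genes are uncertain where strand was not used. The call of *Angpt2* at 6 h held in limma under all 15 alternatives (highest adjusted p = 0.0398), and each of the other list calls above was lost under 2 to 10 of 15 or 16, with its direction kept. No gene of the 4 lists was called lower in any comparison or called between SE + LEV and SE mice.

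The medians of the lists at 6 h were 0.58 for other endothelial identity genes, 0.29 for other junction genes, 0.71 for TIE and endoglin partners and 0.47 for transcription factors, beside -0.13 over all genes. At 2 days they were 0.76, 0.35, 0.51 and 0.83, beside -0.03. Levels at 2 days exceeded pre-SE levels without overlap in 14 of 20, 8 of 14, 9 of 11 and 10 of 16 genes, beside 26.3% of all genes. Because earlier results were known when the lists were chosen, these shares cannot be read as a test against all genes.

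**Figure D4:**
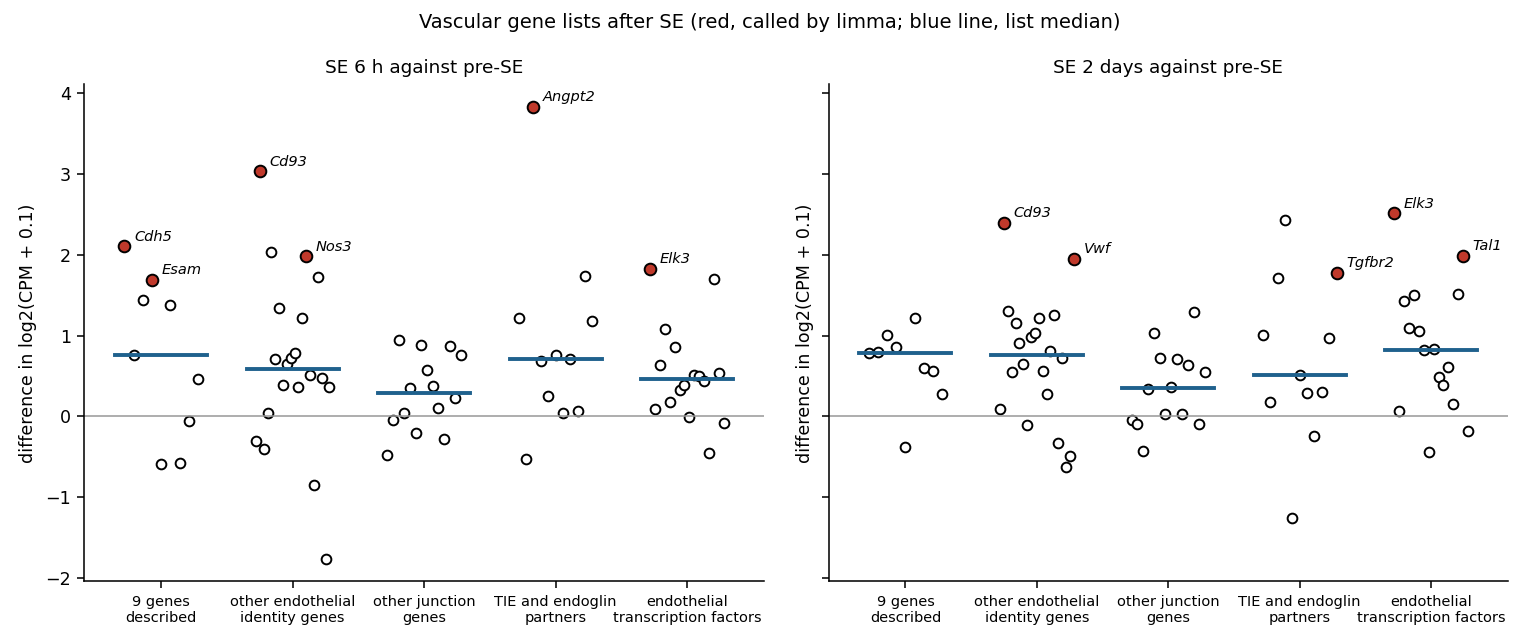
Differences in log2(CPM + 0.1) from pre-SE mice of the 9 genes and of 4 related lists at 6 h (left) and 2 days (right), with 1 point per gene, called genes in red with their names and a blue line at each list's median. *Angpt2* (3.82) and *Cd93* (3.03) lie above all 9 genes at 6 h, and no gene in the list of other junction genes is red.

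Markers of mural, blood and other brain cells were summed beside these results, and their part in them was not tested. The 10 pericyte and mural markers summed to 101 and 135 CPM before SE, 116 and 155 at 6 h and 155 and 146 at 2 days. With LEV they summed to 149 and 213 CPM at 6 h and to 152 and 192 at 2 days. The highest sum was thus in SE + LEV 6 h mouse 2, which also had more of each of the 8 genes other than *Cdh5* than mouse 1. Of 10 leukocyte markers 4 were listed, summing to 2.66 and 3.32 CPM before SE, 7.4 and 8.15 at 6 h and 21 and 20.6 at 2 days. *Ptprc* (14.84 and 13.76 CPM at 2 days) and *Plac8* (5.05 and 2.24 CPM) were higher in SE 2 days than in SE 6 h mice. *S100a8* (0.55 and 2.39 CPM) and *S100a9* (0.55 and 2.24 CPM) were not. Of 6 platelet markers 2 were listed, summing to 0.83 and 1.96 CPM before SE and 3.43 and 5.62 CPM at 6 h. Nearly all of this was *Pf4*, at 0.76 and 1.86 CPM and then 3.37 and 5.55 CPM. *Itga2b* was not higher, at 0.07 and 0.1 CPM before SE and 0.06 and 0.07 CPM at 6 h. Platelets also carry PECAM-1 and ESAM. The 2 listed haemoglobin genes summed to 22.6 and 23.8 CPM before SE, 8.73 and 12.5 CPM at 6 h and 7.21 and 3.58 CPM at 2 days. Neuron markers summed to 5452 and 5128 CPM before SE and 3980 and 3286 in SE 2 days mice. Oligodendrocyte markers summed to 4653 and 5116 CPM and then 1668 and 2575. Sums were higher in SE 2 days mice for astrocyte markers (2437 and 2297, then 3512 and 4936 CPM) and microglia markers (156 and 148, then 289 and 274 CPM).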

How the data were processed

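CAGE libraries of 10 whole hippocampi, 2 mice in each of 5 groups taken from the labels, were analysed. The submitters' notes name BWA 0.7.17, HISAT2 2.0.5, bedtools 2.12.0 and the genome build mm9. Per the methods, tags were clustered with RECLU and clusters under 0.1 CPM were discarded. The authors deposited CPM values rounded to 2 decimals, 1 per gene and mouse; the step from clusters to genes is not given in the sources used here. Totals were recovered as the value of 1 tag of which all CPM were whole multiples within 0.00501 CPM and served only as depth.

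Genes reaching 0.1 CPM in 2 or more libraries (15851) were fitted as log2(CPM + 0.1) in limma 3.58.1 (R 4.3.3), with a coefficient for each of the 5 groups, the variance trend switched on, moderated two-sided tests and Benjamini-Hochberg adjustment, and the scale understates changes of low genes. The procedure was tested on simulated tag counts with the same dispersion for all genes and no library high in *Ttr*, a simpler case than these data. The labels do not say that replicates came from separate batches. The p-values rest on the spread between mice within groups, pooled over the 5 groups and moderated by that of other genes. All 9 members, called genes of the 4 lists (up to 5 a list) and the 5 genes nearest to *Cdh5* were named. The members and lists were chosen with earlier results of these data known. Summaries and figures used Python 3.11.15, pandas 2.3.3, numpy 2.4.6 and matplotlib 3.10.9. Gene positions were read from the GENCODE annotation of mm9, and promoters from RefSeq, build GRCm38.p6.

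Alternatives were pseudocounts of 0.01, 0.5 and 1 CPM, no filter, a filter of 1 CPM, median-of-ratios rescaling, a replicate block, no trend, only the groups compared and each mouse left out. Leaving out libraries with at least 1000 CPM of *Ttr*, a *Ttr* covariate and a crossed block were added after the data were seen.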

Additional observations from a re-analysis of the deposited data

Results flagged for a closer look

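The effect of SE on *Cdh5* differed between the 2 times by -1.31 on the log2(CPM + 0.1) scale (SE 2 days against SE 6 h, adjusted p = 0.0387, limma), lower in both of 2 mice. The call was lost under 6 of 15 alternatives (highest adjusted p = 0.179, limma), with the direction kept. The difference of the 2 effects is the same as the direct comparison of the times, since both are taken against the same pre-SE mice.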

How the results depend on the processing

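Of 1055 repeated values for 69 logFC of named genes, 939 kept their direction and side of the threshold, 78 lost the call, 7 gained it and 31 changed sign, the last only among genes that were not called. The cause of these changes was not tested. For SE 6 h against pre-SE, members called higher numbered 2, and 4 with median-of-ratios rescaling, 1 with only the groups compared, 0 without the libraries high in *Ttr* and 0 to 1 with 1 mouse left out. Over all genes the 437 called higher became 116 without the libraries high in *Ttr*, 106 to 184 with 1 mouse left out and at most 537 otherwise. In SE 2 days against pre-SE mice they numbered 0, and 1 with median-of-ratios rescaling or only the groups compared (*Pecam1* in both). In SE 2 days against SE 6 h mice the 1 member called lower became 0 with the replicate block (*Cdh5*, adjusted p = 0.0549, limma), without the libraries high in *Ttr* and with any 1 mouse left out. Without a trend, 1 member (*Tie1*) was called higher in SE + LEV 2 days against SE + LEV 6 h mice, against 0. *Cdh5* minus the median of the other 8 genes in SE 2 days mice, -0.85, was -0.82 with a pseudocount of 0.5 CPM and -0.78 with 1 CPM.

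Changes of sign were as follows. For SE 6 h against pre-SE mice the logFC of *Tie1* was 0.058 with median-of-ratios rescaling and -0.33 to 0.21 with 1 mouse left out. For SE 2 days against SE 6 h mice that of *Cldn5* was -0.064 with rescaling and -0.37 to 0.45 with 1 mouse left out, and that of *Ocln* -0.24 to 0.68. For SE + LEV 6 h against SE 6 h mice, without the libraries high in *Ttr*, *Cldn5* was 0.13, *Tjp1* -0.10 and *Tie1* 0.22, and *Tjp1* was -0.053 with rescaling. With 1 mouse left out *Cldn5* ran from -0.47 to 0.23, *Ocln* from -0.45 to 0.60, *Tjp1* from -0.10 to 0.11, *Tie1* from -0.32 to 0.22 and *Tek* from -0.028 to 1.53. For SE + LEV 2 days against SE 2 days mice *Cldn5* was -0.037 with rescaling, and *Esam* 0.25 and *Eng* 0.057 without the libraries high in *Ttr*. With 1 mouse left out *Cldn5* ran from -0.40 to 0.42, *Ocln* from -0.008 to 0.82, *Tek* from -0.13 to 0.62, *Esam* from -0.33 to 0.25 and *Eng* from -0.24 to 0.20. Where leaving out a mouse left a group with 1, that mouse was assumed to vary like the other groups.

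Replicate numbers are only numbers of different animals. The correlation of the deviations of same-numbered mice across genes ran from -0.44 to 0.34 over the comparisons. With the replicate block *Eng* was also called at 6 h (adjusted p = 0.031, limma), 3 members against 2, and the other counts of members stayed the same apart from the one above. Crossing the numbers left 0 members called in SE + LEV 2 days mice against SE 2 days or pre-SE mice. The count tests planned on recovered tags (edgeR and DESeq2) were not run. In all 10 libraries the CPM were whole multiples of 1 tag within rounding. A separate check of units, with values rounded to 2 decimals, could not accept them as whole reads in 7 of the 10. At the lowest depth 3 tags were worth 0.285 CPM, which limits *Tie1* most, the lowest of the 9 genes.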
